A study of Homo sapiens with 12 samples.

Results

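RPL12 (uL11) belongs to the large ribosomal subunit, where it sits at the base of the P-stalk, the lateral protuberance through which elongation factors reach the ribosome. Serine 38 of this protein is the phosphorylated residue named in the study. S38D replaces that serine with aspartate, whose negative charge is used to mimic phosphate, and S38A replaces it with alanine, which cannot carry phosphate. The question addressed here was whether the RNA recovered with tagged RPL12 from 80S monosomes, relative to the RNA of the same monosomes, differed between the phosphomimic and the non-phosphorylatable form.

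The comparison used 8 of the 12 libraries of the series, chosen by their titles: IP and input of S38D, and IP and input of S38A, with 2 libraries in each of these 4 groups. All came from HEK293, a long-established line of human embryonic kidney origin, carried as Flp-In T-Rex derivatives that overexpressed FLAG/HA-tagged RPL12 of 1 form. Per the labels, each line was selected with hygromycin and grown from monoclonal colonies, so that the effect of the residue and of the clone cannot be told apart. Nothing in the labels describes removal of the endogenous RPL12. Polyadenylated RNA was sequenced from an aliquot of a pooled 80S sucrose gradient fraction (input) and from the anti-FLAG immunoprecipitate of the remainder of that fraction (IP). Input and IP of the same number were therefore taken as 2 readings of 1 fraction, and each of the 4 fractions gives its own IP over input value. The numbers come from the titles. In the labels of the second S38A and S38D libraries the genotype field instead reads S38A1 and S38D1. The 4 WT libraries (2 fractions of cells with tagged wild-type RPL12) took no part in the main fit of the contrast. They were used as an outside reading and in alternative fits. No IP was made from cells without the tag, so RNA held by the beads alone cannot be told apart from RNA recovered through RPL12.

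Gene counts were 4390785 and 3695441 in S38D IP and 8423735 and 8150252 in S38D input, against 6150315 and 7430881 in S38A IP and 8679169 and 8723130 in S38A input. The S38D IP libraries were thus the shallowest of the 8. Genes are given by Ensembl identifier because the files carry no symbols and the reference table pairs none with these identifiers. For the same reason the tagged gene and the markers of the cell line were not analysed here. Whether the 2 fractions of a form came from different cultures is not stated. The spread behind the p-values for IP over input is the disagreement in that value between the fractions of a line, which may therefore be technical. It was estimated mainly across genes, as given below, and not from each gene alone.

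Among 16717 genes, 480 (2.87%) differed in IP over input between S38D and S38A at adjusted p under 0.05, of which 429 (2.57%) were higher and 51 (0.305%) lower in S38D (edgeR quasi-likelihood test with the fraction as a block). The differences were small. The 429 genes higher in S38D had a median log2 difference of 0.49 (1.404-fold), with the middle 50% between 0.43 and 0.58. The 51 lower genes had a median of -0.54 (1.45-fold), with the middle 50% between -0.65 and -0.46. Only 4 of the higher and 3 of the lower genes reached 2-fold at a mean of at least 5 CPM (counts scaled to equal library size by TMM). At an unadjusted p under 0.05 stood 2139 genes, where chance gives 836.

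These calls rested both on the pairing of IP and input and on the set of libraries fitted. Without the fraction as a block the same 8 libraries gave 0 calls in edgeR, with 239 genes at unadjusted p under 0.05, and a fit of all 12 libraries gave 0 calls with the block (578 genes at unadjusted p under 0.05) and without it (109). With the block and 1 of the WT fractions left out, settings added after seeing the data, 405 and 401 genes were called, of which 403 and 401 were among the 480. A single WT fraction is fitted exactly by its own block and IP effect, so it adds nothing to the estimate of spread. Close recovery of the 480 was therefore given in advance. The spread was estimated mainly across genes, with 262 prior degrees of freedom against 2 from each gene's own fractions, so that a gene whose 2 fractions disagree can still pass.

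Scaling decided the split of directions. TMM scaling put the median difference of all genes at -0.02, whereas total counts put it at -0.16, and 428 genes were then called, 146 higher and 282 lower in S38D. All 480 genes kept their sign with total counts, but the calls shared between the scalings were 146 of the 429 higher and 51 of the 51 lower genes. DESeq2 with the same block called 278 genes, all higher in S38D, with 226 of them among the 429. It gave no adjusted p for some genes, among them those named below by the size of this difference. The absence of lower calls in DESeq2 therefore does not cover every gene. Without the second S38D fraction 41 genes were called, without the first 300, and without the second S38A fraction 272.

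**Figure D1:**
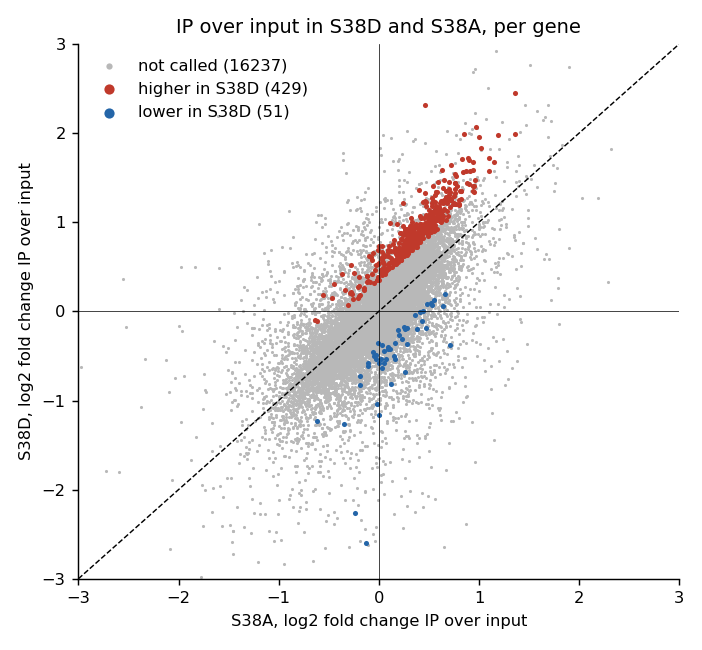
Each point is 1 of 16717 genes, placed by its log2 fold change of IP over input in S38D (vertical) and in S38A (horizontal). Red points are the 429 genes called higher and blue points the 51 called lower in S38D, the dashed line marks equal values, and 27 genes lie outside the axes. Most red points lie in the upper right corner, where IP exceeded input in both lines, and most blue points lie near or below 0 in S38D.

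The genes higher in S38D were for the most part genes already recovered above input in both lines. Of the 429, 388 had a positive log2 IP over input in both S38D and S38A, 39 were positive in S38D and negative in S38A, and 2 were negative in both. Over all 16717 genes, 6067 (36.3%) were positive in both, 1473 positive in S38D and negative in S38A, and 7119 negative in both. These signs are those with TMM scaling. The median log2 IP over input of the 429 was 0.87 in S38D and 0.36 in S38A, beside -0.06 and -0.01 for all genes. By the test within each line, 317 of them were higher in IP in both lines, 94 passed only in S38D, 11 were lower in IP in S38A without passing in S38D, and 7 passed in opposite directions. These counts come from the same libraries as the call and describe it.

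The 51 genes lower in S38D had a different layout. Their median log2 IP over input was -0.42 in S38D and 0.13 in S38A. In 29 of them the value was negative in S38D and positive in S38A, in 15 it was negative in both, and in 7 positive in both. Over all 16717 genes these counts were 2058, 7119 and 6067. By the test within each line, 32 of the 51 were lower in IP in S38D without passing in S38A. Another 16 were higher in IP in S38A without passing in S38D. Of the rest, 1 was lower in both, 1 passed in opposite directions, and 1 passed in neither.

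The difference lay mostly in the IP libraries. For the 429 higher genes the median log2 difference between S38D and S38A was 0.58 among IP libraries and 0.08 among inputs, and the IP difference was the larger in size in 410, beside 11235 of all 16717 genes. For the 51 lower genes these medians were -0.58 and 0.03, and the IP difference was the larger in 48. For all genes the medians were -0.02 and 0.01. Compared without their inputs, however, the 4 IP libraries gave 1 call in 14991 genes (0.00667%) in edgeR, with 1745 genes at unadjusted p under 0.05 against 750 by chance, and the 4 inputs gave 1 call in 16443 (0.00608%), with 488 against 822. DESeq2 called 258 genes between the IP libraries and 2 between the inputs. The biological coefficient of variation was 16.1% between IP libraries of a line and 16.3% between inputs, and 5.06% once each IP library was set against its own input.

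The largest increase that met the naming rule was that of ENSG00000240616.1. It stood at 15.0 and 17.8 CPM in the S38D IP libraries and at 2.83 and 3.74 in S38D input, against 5.70 and 5.64 in S38A IP and 5.67 and 2.83 in S38A input. Its S38D IP values lay above the other 6 of the 8 libraries, and the S38A IP and input values overlapped. The log2 difference in IP over input was 1.86 (SE 0.39, edgeR adjusted p = 0.00047), from paired values of 2.30 and 2.17 in S38D and 0.01 and 0.93 in S38A. In WT the paired values were 0.62 and 0.66, within the S38A range. The counts behind it were low, 59 and 57 reads in S38D IP. Without the first S38A fraction the difference was 1.33 (edgeR adjusted p = 0.15), and with thinned counts 1.56 (adjusted p = 0.069).

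ENSG00000240376.1 had 63.5 and 68.2 CPM in S38D IP and 16.7 and 16.3 in S38D input, against 30.5 and 19.7 in S38A IP and 20.0 and 8.60 in S38A input. Among the 8 libraries S38D IP was again highest, while WT IP stood at 65.2 and 51.7 CPM with all 12 libraries scaled together, and the 2 S38A fractions differed from each other in both IP and input. The log2 difference was 1.14 (SE 0.21, edgeR adjusted p = 3.4e-05), with paired values of 1.91 and 2.05 in S38D and 0.60 and 1.17 in S38A. The WT fractions gave 1.60 and 1.44, between the lines. Without the first S38A fraction the difference was 0.80 (edgeR adjusted p = 0.068).

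Among the decreases, ENSG00000166888.6 stood at 6.60 and 3.44 CPM in S38D IP and 17.3 and 5.15 in S38D input, against 19.1 and 19.01 in S38A IP and 18.5 and 19.4 in S38A input. Both S38D IP libraries were low, and so was the second S38D input. The log2 difference was -1.17 (SE 0.31, edgeR adjusted p = 0.014), with paired values of -1.35 and -0.54 in S38D and 0.04 and -0.03 in S38A. The S38D fractions thus lay further apart than the nearest values of the lines. Without the first S38D fraction the difference was -0.58 (edgeR adjusted p = 0.76), and with thinned counts -1.03 (adjusted p = 0.14). The WT fractions gave -0.59 and -0.20.

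ENSG00000161677.7 stood at 17.0 and 14.1 CPM in S38D IP and 23.1 and 17.4 in S38D input, against 26.0 and 28.8 in S38A IP and 14.0 and 19.5 in S38A input. IP lay below input in both S38D fractions and above it in both S38A fractions, with paired values of -0.43 and -0.30 in S38D and 0.88 and 0.56 in S38A. The log2 difference was -1.09 (SE 0.23, edgeR adjusted p = 0.00059). The WT fractions gave -0.29 and 0.96, 1 value near each line. Without the first S38D fraction the difference was -1.02 (edgeR adjusted p = 0.065).

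**Figure D2:**
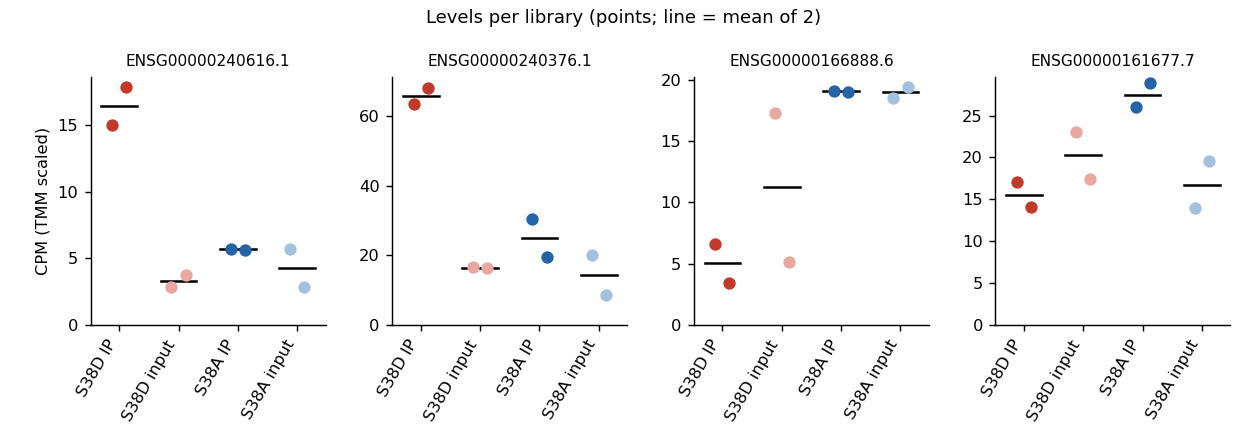
TMM-scaled CPM of the 2 genes with the largest increase and the 2 with the largest decrease in S38D that met the naming rule, 1 panel a gene and 1 point a library, with bars at the mean of 2. S38D IP stands highest in the first pair of panels (15.0 and 17.8 CPM for ENSG00000240616.1), and S38D IP stands lowest of the group means in the second pair.

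A further gene, ENSG00000132467.2, had the lowest p of the contrast and is singled out after its values were seen. It stood at 363 and 525 CPM in S38D IP and 76.4 and 84.5 in S38D input, against 181 and 116 in S38A IP and 67.5 and 47.4 in S38A input. IP exceeded input in all 4 fractions, and more so in both S38D fractions, with paired log2 values of 2.24 and 2.63 in S38D and 1.42 and 1.29 in S38A. The log2 difference was 1.08 (SE 0.12, edgeR adjusted p = 9.3e-14). In WT the paired values were 3.27 and 1.96, so that 1 WT fraction exceeded both S38D fractions and the other lay between the lines.

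ENSG00000082805.15 was the 1 gene called between the lines in IP libraries alone and also the 1 gene called in inputs alone. It stood at 461 and 554 CPM in S38D IP and 383 and 446 in S38D input, against 73.1 and 86.8 in S38A IP and 84.9 and 98.1 in S38A input. S38D exceeded S38A in both kinds of library, by 2.65 on the log2 scale in IP (SE 0.20, edgeR adjusted p = 9.4e-05) and by 2.18 in input (SE 0.16, adjusted p = 0.0090). Most of the difference between lines was therefore already in the input. In IP over input it differed by 0.49 (SE 0.11, edgeR adjusted p = 0.0028). Its paired values were 0.27 and 0.31 in S38D, -0.22 and -0.18 in S38A, and 0.22 and -0.17 in WT. Its WT levels were 105.5 and 54.3 CPM in IP and 90.3 and 61.3 in input, with all 12 libraries scaled together.

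Within each line, IP and input differed for many genes. For S38D, IP exceeded input in 3300 genes (19.7%) and lay below it in 3194 (19.1%), 38.8% in all. For S38A it exceeded input in 3142 genes (18.8%) and lay below it in 3073 (18.4%), 37.2% in all (edgeR with the fraction as a block). Without the block 930 were higher and 535 lower in S38D and 0 passed in S38A, with 3117 genes at unadjusted p under 0.05. With total counts the splits were 1745 higher and 6623 lower in S38D and 2072 higher and 4340 lower in S38A. At least 2-fold changes among the called genes were more numerous in S38D, with 399 higher and 409 lower, than in S38A, with 118 higher and 203 lower, a difference that was not tested. Of all 16717 genes, 2329 were called higher in IP in both lines and 2210 lower in both, 7 were higher in S38D and lower in S38A, and 1 was the reverse.

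Among genes called within a line that averaged at least 5 CPM and met the naming rule, the largest increases in S38D IP were those of ENSG00000132467.2 (log2 2.45, SE 0.08, edgeR adjusted p = 3.2e-83) and ENSG00000240616.1 (2.32, SE 0.27, adjusted p = 1.5e-14), described above. The largest decreases by the same rule were those of ENSG00000261366.1 (-1.99, SE 0.29, adjusted p = 1.5e-09), at 2.28 and 4.69 CPM in S38D IP and 11.4 and 15.8 in S38D input, and of ENSG00000169570.5 (-1.70, SE 0.19, adjusted p = 5.5e-15), at 6.35 and 12.8 CPM in S38D IP and 26.0 and 34.9 in S38D input. By that rule ENSG00000261366.1 was also among the 2 largest decreases in S38A (-1.65, SE 0.25, adjusted p = 9.1e-09), at 3.85 and 2.75 CPM in S38A IP and 10.0 and 10.5 in S38A input. Neither gene passed between the lines, with log2 differences of -0.33 (SE 0.43, edgeR adjusted p = 0.84) and -0.30 (SE 0.27, adjusted p = 0.72).

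In S38A the other largest changes by that rule were those of ENSG00000141933.8 (log2 1.78, SE 0.23, edgeR adjusted p = 2.5e-11), ENSG00000251705.1 (1.69, SE 0.26, adjusted p = 1.4e-08) and ENSG00000267160.1 (-1.75, SE 0.28, adjusted p = 4.7e-08). ENSG00000141933.8 stood at 16.6 and 12.5 CPM in S38A IP and 1.53 and 6.93 in S38A input. Its 2 S38A fractions gave 3.22 and 0.82, so that its standard error understates the distance between them. Without the first S38A fraction the log2 change was 0.84 (edgeR adjusted p = 0.017), and without the second 3.45. ENSG00000251705.1 stood at 11.2 and 7.21 CPM in S38A IP and 3.49 and 2.20 in S38A input, and ENSG00000267160.1 at 3.85 and 1.70 CPM in S38A IP and 10.5 and 7.77 in S38A input. None of these 3 genes passed between the lines, with log2 differences of -0.16, 0.27 and 0.66 (edgeR adjusted p = 0.93, 0.86 and 0.66).

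The signed difference, S38D minus S38A, was higher in more abundant genes. In the quartile of genes with the highest mean CPM (73.4 to 3456), 349 of 4179 genes were higher (8.35%) and 21 lower in S38D, and the median log2 difference was 0.07. In the next 2 quartiles, from the higher down, 67 and 12 were higher and 18 and 9 lower, with medians of -0.03 and -0.06. In the lowest quartile (up to 6.77 CPM) 1 was higher and 3 were lower, with a median of -0.12. Calls are easier at high counts, so their numbers are not comparable between quartiles. With total counts the medians were -0.08, -0.17, -0.21 and -0.27 from the highest quartile down, so the order was the same and the sign of the highest quartile was not. With all libraries thinned to the depth of the shallowest, 274 genes were called higher and 23 lower, of which 260 and 14 were among the 429 and 51.

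**Figure D3:**
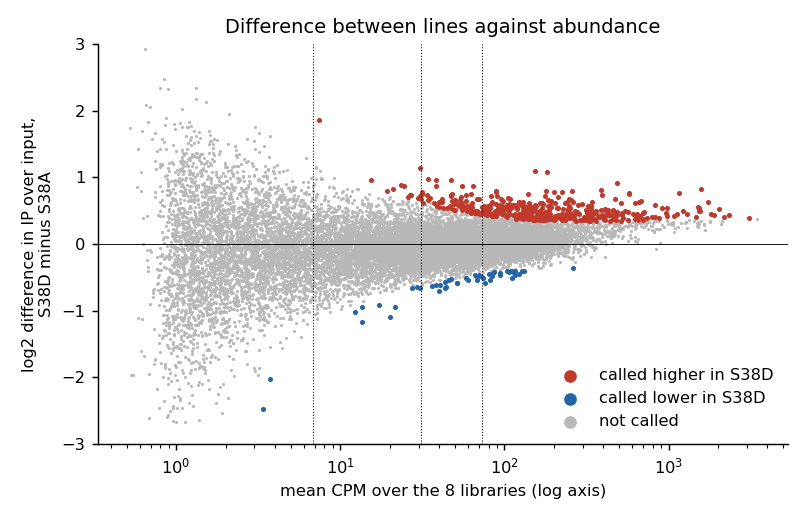
Log2 difference in IP over input, S38D minus S38A, against mean CPM over the 8 libraries on a log axis, 1 point a gene, with dotted lines between the abundance quartiles and 23 genes outside the axis. Red points (called higher in S38D) gather in the highest quartile, which holds 349 of the 429, and the 51 blue points (called lower) are spread more widely, with 21 in the highest quartile and 18 in the next.

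IP over input was more widely spread over genes in S38D. In the highest abundance quartile its SD over 4179 genes was 0.40 and 0.47 in the S38D fractions, against 0.31 and 0.36 in the S38A fractions. Across these genes, which are not independent replicates, the 2 S38D fractions correlated at 0.94 and the 2 S38A fractions at 0.87, and an S38D fraction correlated with an S38A fraction at 0.82 to 0.90. The major axis of S38D on S38A values, each the mean of 2 fractions, had a slope of 1.39. The 2 WT fractions correlated at 0.70 with each other. The first correlated at 0.81 and 0.82 with the S38D fractions and at 0.73 and 0.60 with the S38A fractions, and the second at 0.89 with both S38D fractions and at 0.94 and 0.90 with the S38A fractions.

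The WT libraries took no part in the main fit of the contrast, but the reading from them was not fully separate. The genes binned here were chosen by mean CPM over the 8 libraries of the contrast, and all 12 libraries were scaled together. The 4179 most abundant genes were placed in 5 bins by their mean log2 IP over input in WT. From the lowest to the highest bin the median log2 difference between S38D and S38A was -0.04, 0.00, 0.04, 0.13 and 0.30. The lowest bin held 0 genes called higher and 5 called lower of 836. The highest held 291 called higher (34.8%) and 1 called lower of 836, where 8.35% of the quartile were called higher. In that bin the median log2 IP over input was 0.73 in S38D and 0.45 in S38A, beside 0.80 in WT. With total counts the medians ran from -0.19 to 0.15 in the same order, with a sign change between the fourth bin (-0.02) and the fifth. Binned by the first WT fraction alone the medians ran from -0.05 to 0.31, and by the second alone from -0.03 to 0.22.

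**Figure D4:**
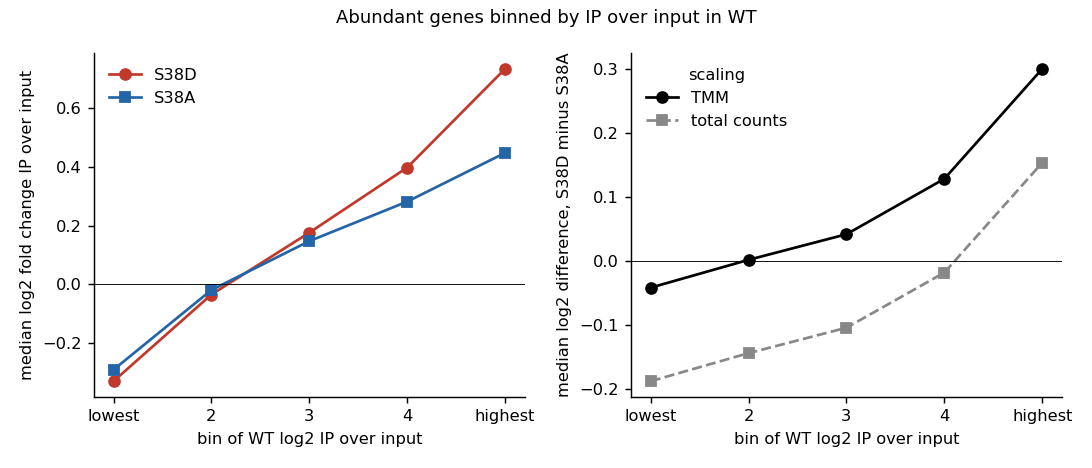
The 4179 most abundant genes in 5 bins of their WT log2 IP over input. Left, median log2 fold change of IP over input in S38D and S38A, which separate in the highest bin (0.73 and 0.45). Right, median log2 difference of S38D minus S38A with TMM scaling and with total counts, which both increase over the bins.

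The spike-in share was higher in both S38D IP libraries than in either S38A IP library. The ERCC share of counts was 4.49% ± 0.98 in S38D IP and 1.79% ± 0.50 in S38A IP (SD, n = 2 each), beside 0.34% ± 0.01 in S38D input and 0.28% ± 0.09 in S38A input. The difference between the IP groups had p = 0.33 in a two-sided exact permutation test, the smallest that 2 against 2 libraries allow. Each share of the 8 libraries had an exact 95% Clopper-Pearson interval no wider than 0.044 percentage points, which covers counting error only. The sources used here do not give the amount of spike-in added to IP RNA.

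The median log2 IP over input of the 429 genes higher in S38D was 0.78 and 0.95 in the S38D fractions, 0.43 and 0.32 in the S38A fractions, and 1.32 and 0.57 in the WT fractions, with all 12 libraries scaled together. The spike-in share of the same IP libraries was 3.79% and 5.18% in S38D, 2.15% and 1.44% in S38A, and 5.43% and 2.57% in WT. The genes were chosen for S38D above S38A, so the placing of the S38D over the S38A fractions says nothing about the spike-in share. The WT fractions took no part in that choice, and the one with the higher spike-in share had the higher median. Its IP library was also the shallower, with 3186164 gene counts against 5048911. Over all IP libraries, gene counts fell as the spike-in share rose, so depth and spike-in share cannot be told apart. The part of depth, or of whatever sets the spike-in share, in the difference between lines was not tested. Of these 429 genes, 285 had a mean WT value above both lines, beside 5253 of all 16717 (31.4%), and 144 a value between them. That mean rests on the first WT fraction, since the median of the second lay below both S38D fractions.

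For the 51 genes lower in S38D the median was -0.40 and -0.42 in the S38D fractions, 0.10 and 0.20 in the S38A fractions, and -0.16 and -0.04 in the WT fractions. Here too the order of the S38D and S38A fractions was fixed by the choice of genes. The mean WT value lay between the lines for 45 of the 51 genes, beside 4581 of all 16717, and genes chosen for a wide gap between the lines leave more room for a value between them.

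**Figure D5:**
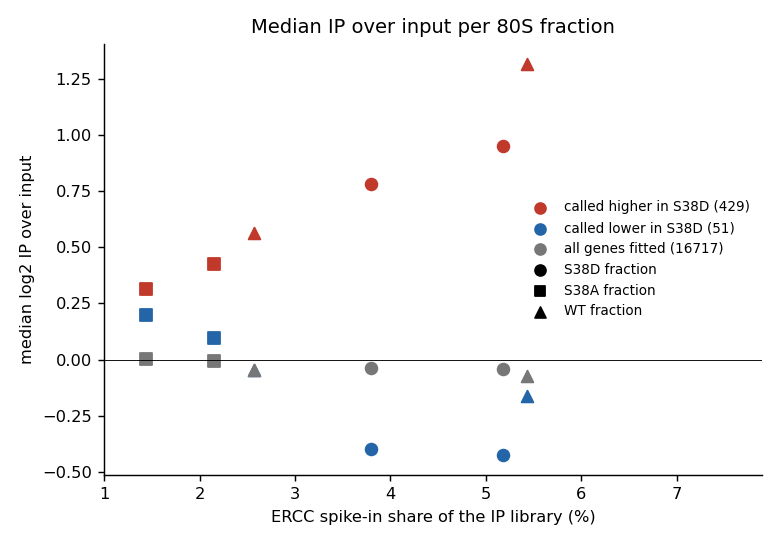
Median log2 IP over input in each of the 6 fractions (vertical) against the ERCC share of its IP library in percent (horizontal), for the genes called higher and lower in S38D and for all genes. Red and blue genes were chosen for S38D above or below S38A, so their order over those 4 fractions is given by the choice. The WT fractions, which were not used in it, have red medians of 1.32 and 0.57 at spike-in shares of 5.43% and 2.57%. Of the WT IP libraries, the first was also the shallower.

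Genes with no overlap between the lines were common. There are only 6 ways to split the fractions 2 against 2, so full separation often arises by chance. In 3545 genes (21.2%) both S38D fractions exceeded both S38A fractions in log2 IP over input, and in 3457 (20.7%) both lay below. Of the genes called higher 428 of 429, and of those called lower 51 of 51, were without overlap. Separation of 2 fractions from 2 is therefore no mark of the called genes alone.

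Cell cycle genes were read from marker lists, since the study's title concerns translation in mitosis. Of 208 G2M markers 14 were higher (6.73%) and 0 lower in S38D, of 239 G1 markers 13 (5.44%) and 0, and of 252 S markers 15 (5.95%) and 2 (0.794%), where 2.57% and 0.305% of all genes passed. Their median log2 differences were 0.04, 0.07 and 0.03, beside -0.02 for all genes. Within the highest abundance quartile, which holds 94, 109 and 127 of these markers, 12 G2M, 8 G1 and 11 S markers were higher, and the quartile as a whole had 8.35% called higher. With total counts 4 G2M, 4 G1 and 5 S markers were higher and 3, 1 and 4 lower, and the medians were -0.11, -0.07 and -0.11, above the -0.16 of all genes. Without the second S38D fraction 1 G2M, 0 G1 and 0 S markers were called higher. Differences between the phases were not tested. Of the 208 G2M markers, 63 were higher and 36 lower in IP than in input in S38D, and 49 were higher and 47 lower in S38A, with median log2 IP over input of 0.01 in S38D and -0.01 in S38A.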

How the data were processed

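Each deposited table holds 1 library's raw counts, with 57820 Ensembl identifiers and 92 ERCC spike-in rows. The submitters' processing notes list bcl2fastq 2.16.0.10, STAR 2.4.2a, DESeq2 and build hg19. Neither the counting tool nor its strand setting is stated, so overlapping, antisense and near-identical genes have uncertain values. Spike-in rows entered neither library sizes nor tests.

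An Ensembl identifier was given for 0 of the 59792 reference genes, so 0 of the 30 gene lists written by symbol could be applied. Members, lists and tests were chosen with earlier results of these data known. Genes were named by size of the log2 difference among those with adjusted p under 0.05, whose fractions did not overlap and whose CPM averaged 5 or more. The rule asked for symbols and for more genes. Without symbols the number was limited to 2 in each direction and comparison. The rule was applied in adapted form to the other comparisons after their values were seen. Within a line, both paired values of that line had to share a sign, and overlap between the lines was not considered. For IP or input libraries alone, the levels in the 2 S38D libraries could not overlap those in the 2 S38A libraries.

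The 8 libraries were fitted in edgeR 4.0.16 (R 4.3.3). Genes were kept by filterByExpr (groups, minimum count 10) and scaled by TMM, followed by glmQLFit with fraction as a block and 1 IP effect a line, and glmQLFTest, with Benjamini-Hochberg adjustment over all genes of each of 5 comparisons. IP and input libraries alone were compared in fits of 4 libraries. Standard errors are the log2 change divided by the square root of F. Paired values are log2 CPM of IP minus input with a prior count of 2. The block was set because the labels give 1 fraction for both libraries. Deviations of same-numbered IP and input libraries from their group means correlated across genes at 0.55 in S38D and 0.65 in S38A. No replicate pair agreed within sampling noise (chi-square per degree of freedom 5.39 to 12.6). Cell cycle lists came from the human marker pairs of scran 1.30.0, keeping genes that appear in 20 or more pairs for a phase, lead a share of 0.8 or more of them, and fall in 1 phase only.

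Alternatives were RLE and total-count scaling, no filter, mean CPM of at least 10, DESeq2 1.42.0, voom in limma 3.58.1, thinned counts, no replicate block, all 12 libraries and omission of each fraction or library. Leaving 1 WT fraction out of the 12 was added after seeing the data. On simulated counts of the S38D versus S38A contrast (16503 genes), the fit with the block recovered 87% of 2-fold and 49% of 1.5-fold changes with 4 false calls. The fit with no block recovered 0% of either. The simulation gave IP and input of a fraction the same shift for each gene. Its spread followed the trend across genes from the fit with the block. It therefore favoured that fit by construction and cannot judge between the fits.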

Additional observations from a re-analysis of the deposited data

Results flagged for a closer look

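The change from input to IP differed between S38D and S38A by an interaction test in 480 genes. Among the named genes this difference was 1.86 for ENSG00000240616.1, 1.14 for ENSG00000240376.1, -1.17 for ENSG00000166888.6 and -1.09 for ENSG00000161677.7 on the log2 scale. Spike-in RNA, which no gene comparison used, took 4.49% of the counts in S38D IP against 0.34% in S38D input, and 1.79% in S38A IP against 0.28% in S38A input.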

How the results depend on the processing

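For S38D versus S38A in IP over input, the 480 calls became 278 with DESeq2, 297 with thinned counts, 41 to 556 with 1 fraction left out, and 0 with no replicate block, with 12 libraries and the replicate block, and with 12 libraries and no replicate block. Without a fraction the counts were 300 and 41 for the first and second S38D fraction and 556 and 272 for the first and second S38A fraction. For S38D IP versus input, 6494 calls became 3764 with DESeq2, 1465 with no replicate block, 3379 with 12 libraries and the block, 824 with 12 libraries and no block, and 3594 to 6696 with 1 fraction left out (3594 without the second S38D fraction). For S38A IP versus input, 6215 became 2940 with DESeq2, 0 with no replicate block, 2079 with 12 libraries and the block, 0 with 12 libraries and no block, and 3380 to 5913 with 1 fraction left out (3380 without the second S38A fraction). Between the IP libraries alone 1 call became 298 with no filter, 258 with DESeq2 and between 1 and 671 when any single library was omitted (671 and 11 without the first and second S38A library, 13 without the first S38D library). Between the inputs alone 1 became 2 with DESeq2 and between 1 and 39 likewise (39 and 5 without the first and second S38D library, 3 without the second S38A library). Of the other count comparisons, 43 stayed within 1.5 times of their main count. Among single named genes 172 comparisons kept their call, 27 lost it and 0 changed sign. DESeq2 gave no adjusted p for the 4 genes named in the S38D versus S38A contrast. Total counts changed the share of higher genes to 34.1% against 89.4% with TMM in the S38D versus S38A contrast, to 20.9% against 50.8% in S38D IP versus input, and to 32.3% against 50.6% in S38A IP versus input. DESeq2 gave 65.2% in S38D. The cause of these changes was not tested. The depth of the S38D IP libraries limits genes of low count.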
